A study of Mus musculus with 2 samples.

Results

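The genes described here carry bile acids through the ileal enterocyte and report their arrival to the liver. They were chosen by symbol, from a list of 10 symbols that counts Osta and Ostb, the older names of Slc51a and Slc51b, beside the current ones. The deposited values list 8 of those symbols, 1 for each gene, of 23284 genes in all: Fabp6, Slc10a2, Osta, Ostb, Fgf15, Nr0b2, Nr1h4 and Gpbar1. Messenger RNA was sequenced from epithelium of the small intestine, taken from mice with the genotype miR-215-/-, which lack the microRNA miR-215, and from wild-type mice with the genotype miR-215+/+. With 1 library per genotype, the differences have no replicate check, and no p-value is given. The labels do not say how the allele was made, which segment of the small intestine was taken, or the strain, sex and age of the mice, nor whether a library pools animals.

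Bile acids are made in the liver from cholesterol, released into the gut to dissolve dietary fat, and recovered at the end of the small intestine. There SLC10A2 takes them up across the brush border, FABP6 binds them in the cytosol, and the heteromer of SLC51A and SLC51B releases them into the portal blood. Inside the enterocyte they activate the nuclear receptor FXR, encoded by Nr1h4. FXR raises transcription of Fabp6, Slc51a, Slc51b, Nr0b2 and the hormone gene Fgf15, and FGF15 then lowers bile acid synthesis in the liver.

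The deleted microRNA is shown first with miR-192, its relative of the same seed, because the seed sets which messages a microRNA can pair with. Both were copied from RefSeq on GRCm38.p6, are 21 nt long, and are given 5′ to 3′ with bases 2 to 8, the seed, in capitals. miR-215-5p lies at chr1:185313610-185313630 and miR-192-5p at chr19:6264857-6264877, both on the plus strand.
miR-215-5p: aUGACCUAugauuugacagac
miR-192-5p: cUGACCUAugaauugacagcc

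A match to this seed was looked for in the longest annotated 3′ UTR of each gene, as the heptamer TAGGTCA or as AGGTCAA, which does not require pairing at base 8. Of the 8 genes, 1 held a match, Slc10a2, where both heptamers overlap in a single site at bases 983 to 990 of a 3′ UTR of 2940 nt. The letters of this site can thus pair with the whole seed, base 8 included. The site is shown because no other gene of the 8 holds these letters, and the first heptamer is in capitals.
Slc10a2 site: ctaatttgataTAGGTCAaattggaaact
Among 21685 genes with an annotated 3′ UTR, 6.24% held the heptamer TAGGTCA and 11.4% held either. The share with both heptamers in a single site was not counted. The median length of these 3′ UTRs was 920 nt, while those of Gpbar1, Fabp6 and Slc51b were 38, 66 and 86 nt. A match is a run of letters, not a measured site.

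The promoter of Fabp6 is shown next, because it is the most abundant gene of the pathway and a known target of FXR. FXR with its partner RXR is known to bind an inverted repeat of a hexamer spaced by 1 base, AGGTCANTGACCT, which reads the same on both strands. The window runs from 250 bases before to 50 after the RefSeq start, at chr11:43601513-43601812 of GRCm38.p6 on the minus strand, and capitals mark runs with at most 3 mismatches to the 12 defined letters.
Fabp6 promoter: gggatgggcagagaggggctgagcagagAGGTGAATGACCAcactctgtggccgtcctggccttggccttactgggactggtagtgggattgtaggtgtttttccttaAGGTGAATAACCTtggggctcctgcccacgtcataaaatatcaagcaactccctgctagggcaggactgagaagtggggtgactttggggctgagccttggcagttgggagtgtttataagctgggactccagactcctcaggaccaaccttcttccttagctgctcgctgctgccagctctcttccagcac
The Fabp6 window held 2 such runs, each with 2 mismatches, at positions -222 to -210 and -142 to -130 from the start. Of 32851 promoter windows of the same length, 1.14% held a run with at most 2 mismatches. A count of windows with 2 or more such runs, made after the Fabp6 window was seen, gave 4 windows, or 0.0122%. The best runs in the windows of Slc51a and Slc51b had 3 mismatches, which 11.4% of windows reach. Those of Slc10a2, Nr0b2, Nr1h4 and Gpbar1 had 4, which 56.4% of windows reach. The Nr1h4 window, chr10:89506609-89506908 on the minus strand, lay inside the annotated gene, which extends upstream to 89533585. The hexamer AGGTCA, on either strand, was in the windows of Slc51a, Slc51b and Nr1h4 and in 16.3% of all windows. Windows were matched for 7 of the 8 genes, all but Fgf15. Letters that are absent from these windows say nothing about FXR at other positions.

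Levels were deposited as FPKM, fragment numbers divided by transcript length and library depth. From the steps between low values, a single fragment on a transcript of 1 kb corresponded to 0.110 FPKM in the miR-215-/- library and 0.114 FPKM in the miR-215+/+ library, and fragment numbers and counting intervals below rest on these steps and on the annotated transcript length. The intervals are at 95% and hold only the error of counting, so animals and preparations may vary more. The epithelial label was checked against 13 enterocyte markers. All 13 were detected in both libraries, with the villus actin-bundling gene Vil1 at 1566 FPKM in the miR-215-/- library and 1600 FPKM in the miR-215+/+ library. Their median log2 ratio was -0.03, but single markers ranged from -0.51 for Alpi to 0.41 for Krt20. The counting intervals of the fold left out 1 for Alpi (0.686 to 0.718) and for Krt20 (1.31 to 1.35). The summed FPKM of all genes were 683884 in the miR-215-/- library and 750631 in the miR-215+/+ library. The median log2 ratio of the 11504 genes that reached 1 FPKM in either library, called the genes kept, was -0.05, and it moved to 0.07 when the miR-215-/- values were multiplied by 1.10 to equal sums.

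The 7 genes of the pathway that reached 1 FPKM did not all differ in 1 direction. Nr0b2 was lower in the miR-215-/- library, Fgf15 was higher, the carriers Fabp6, Slc51a and Slc51b were lower by small factors, and Nr1h4 and Slc10a2 were within counting error. On the log2(FPKM + 1) scale, which understates differences of low genes, 1 of the 7 was at least 2-fold lower in the miR-215-/- library, where 2.04% of all genes kept were. None of the 7 was at least 2-fold higher, where 1.34% of all genes kept were. Over all genes kept, 235 were at least 2-fold lower and 154 higher as deposited, against 185 lower and 209 higher at equal sums. The counting interval of the FPKM fold lay wholly below 1 for 4 of the 7, against 30.7% of 11388 genes kept with an annotated length, and wholly above 1 for 1, against 19.5%. At equal sums these counts were again 4 and 1 of the 7, while the shares over all genes were 19.6% below and 31.3% above. Intervals that leave out 1 were thus common in these libraries. The median log2 ratio of the 7 was -0.29, beside -0.05 over all genes kept.

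**Figure D1:**
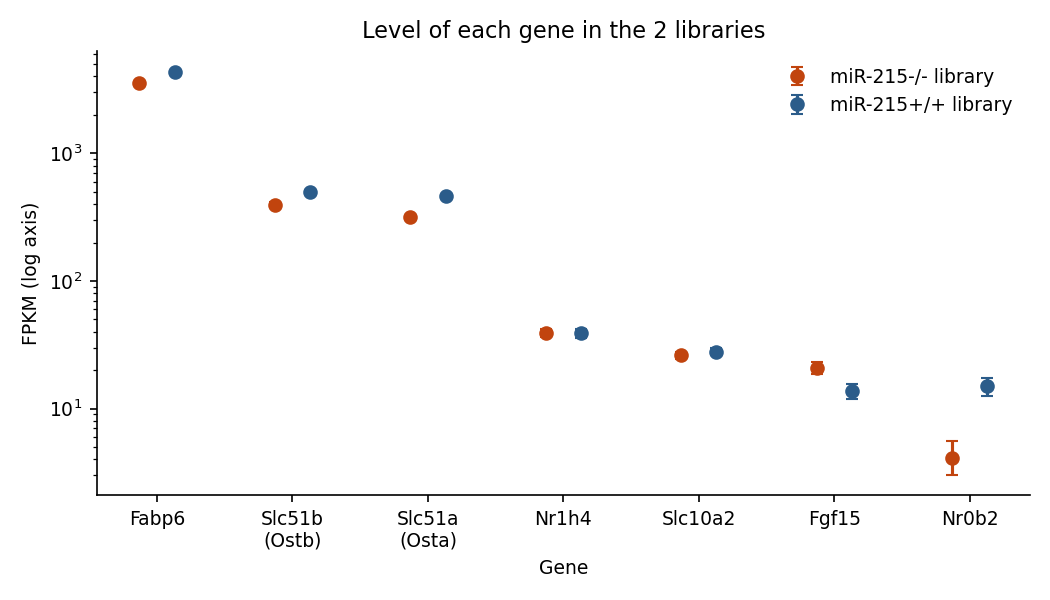
Level of the 7 detected genes in FPKM (log axis), the miR-215-/- library in orange left of the miR-215+/+ library in blue, with 95% Poisson counting intervals that are smaller than the points for abundant genes. Fabp6 stands highest in both libraries, and Nr0b2 shows the widest gap, 4.13 FPKM in the miR-215-/- library against 14.9 FPKM in the miR-215+/+ library; Gpbar1, listed at 0 in both, is not drawn.

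Uptake at the brush border rests on Slc10a2, the apical sodium-dependent bile acid transporter (chromosome 8, 5083219 to 5105351 of mm10, minus strand). It was at 26.1 FPKM in the miR-215-/- library and 27.9 FPKM in the miR-215+/+ library, resting on about 990 fragments in the miR-215-/- library and 1019 in the miR-215+/+ library. The fold was 0.936 with a counting interval of 0.857 to 1.02, so the libraries did not differ beyond counting error. With the miR-215-/- values scaled to equal sums the fold was 1.03 (0.940 to 1.12), on the other side of 1. Slc10a2 is the gene that holds the miR-215 site shown above, and its log2 ratio of -0.09 was near the median of all genes.

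Fabp6, the cytosolic ileal bile acid-binding protein (chromosome 11, 43596049 to 43601540, minus strand), was among the most abundant messages of the preparation. It was at 3554 FPKM in the miR-215-/- library, where it ranked number 14 of all genes, and at 4354 FPKM in the miR-215+/+ library, where it ranked number 17. It took 0.520% of the summed FPKM in the miR-215-/- library and 0.580% in the miR-215+/+ library. The fold of 0.816 (0.799 to 0.834) was below 1 under the deposited scaling and at equal sums, where it was 0.896 (0.877 to 0.915). Of the genes kept, 22.7% had a lower log2 ratio than Fabp6.

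The relatives of Fabp6 in the enterocyte, which bind fatty acids, stood at similar folds. Fabp1, the liver-type protein, was at 6247 FPKM in the miR-215-/- library and 7846 FPKM in the miR-215+/+ library, a fold of 0.796 (0.784 to 0.808). Fabp2, the intestinal-type protein, was at 15926 FPKM in the miR-215-/- library and 18795 FPKM in the miR-215+/+ library, a fold of 0.847 (0.841 to 0.854). The fold of Fabp6 lay between these 2.

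Release into the portal blood needs both subunits of the basolateral transporter, and both were lower in the miR-215-/- library. Slc51a, the larger subunit, listed as Osta (chromosome 16, 32474504 to 32487879, minus strand), was at 317 FPKM in the miR-215-/- library and 464 FPKM in the miR-215+/+ library. Its fold was 0.683 (0.663 to 0.704), and 8.40% of the genes kept had a lower log2 ratio. Slc51b, the small accessory subunit, listed as Ostb (chromosome 9, 65412714 to 65422955, minus strand), was at 396 FPKM in the miR-215-/- library and 496 FPKM in the miR-215+/+ library, a fold of 0.799 (0.758 to 0.842).

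The balance between the subunits can be read within each library, where the scaling between libraries cancels. The ratio of Slc51a to Slc51b in the miR-215-/- library was 0.855 of that in the miR-215+/+ library, with a counting interval of 0.805 to 0.908. Slc51a overlaps the end of Pcyt1a, a gene of phosphatidylcholine synthesis on the opposite strand, which was at 79.4 FPKM in the miR-215-/- library and 126 FPKM in the miR-215+/+ library. Slc51b overlaps the end of Rasl12, which was at 2.93 FPKM in the miR-215-/- library and 1.43 FPKM in the miR-215+/+ library. The library kit keeps the strand, but the sources used here do not say whether counting used it, and the part of shared fragments in these folds was not tested.

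Nr1h4, the gene of the bile acid receptor FXR (chromosome 10, 89454234 to 89533585, minus strand), did not differ beyond counting error. It was at 39.4 FPKM in the miR-215-/- library and 38.8 FPKM in the miR-215+/+ library, resting on about 712 fragments in the miR-215-/- library and 677 in the miR-215+/+ library, a fold of 1.01 (0.911 to 1.13). At equal sums the fold was 1.11 (0.999 to 1.24). The receptor message was far below those of the carriers it is known to induce: Fabp6 was 90.3 times Nr1h4 in FPKM in the miR-215-/- library and 112 times in the miR-215+/+ library.

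Among the targets of FXR that signal rather than carry, Nr0b2 and Fgf15 stood on opposite sides. Nr0b2 encodes SHP, a receptor without a DNA-binding domain that represses other nuclear receptors (chromosome 4, 133553376 to 133556536, plus strand). It was at 4.13 FPKM in the miR-215-/- library and 14.9 FPKM in the miR-215+/+ library, which rest on about 43 fragments in the miR-215-/- library and 148 in the miR-215+/+ library. Nr0b2 was thus 3.61-fold lower, a fold of 0.277 (0.194 to 0.395). Of the genes kept, 0.643% had a lower log2 ratio than its -1.63.

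Fgf15 encodes the ileal hormone that acts on the liver (chromosome 7, 144896531 to 144900953, plus strand). It was at 20.9 FPKM in the miR-215-/- library and 13.7 FPKM in the miR-215+/+ library, resting on about 346 fragments in the miR-215-/- library and 217 in the miR-215+/+ library. The fold was 1.53 (1.29 to 1.83), and with the shortest annotated transcript of 600 nt in place of 1810 nt the interval widened to 1.14 to 2.10. Its log2 ratio of 0.58 was above that of 95.1% of the genes kept. A pair of annotated antisense genes, Gm26793 and Gm39119, overlaps Fgf15, and neither is among the listed symbols.

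Set against each other within a library, Fgf15 was 5.08 times Nr0b2 in the miR-215-/- library and 0.918 times Nr0b2 in the miR-215+/+ library. The quotient of these was 5.53, with a counting interval of 3.78 to 8.08. Against Nr1h4, Fgf15 was at 0.532 in the miR-215-/- library and 0.352 in the miR-215+/+ library, and Nr0b2 was at 0.105 in the miR-215-/- library and 0.383 in the miR-215+/+ library. Relative to the carrier Fabp6 Fgf15 was also higher: its ratio to Fabp6 was 0.00589 in the miR-215-/- library and 0.00314 in the miR-215+/+ library, a quotient of 1.88 (1.58 to 2.23). These bulk preparations cannot tell fewer cells of a type from less RNA per cell.

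Gpbar1, the cell-surface bile acid receptor TGR5 (chromosome 1, 74278550 to 74279624, plus strand), was listed at 0 in both libraries. A count of 0 allows up to 3 fragments, which over its 1075 nt is 0.306 FPKM in the miR-215-/- library and 0.318 FPKM in the miR-215+/+ library. TGR5 is known from enteroendocrine L cells, and the L cell hormone genes Gcg and Pyy were detected. Gcg, the proglucagon gene, was at 24.6 FPKM in the miR-215-/- library and 21.4 FPKM in the miR-215+/+ library. Pyy was at 23.4 FPKM in the miR-215-/- library and 20.1 FPKM in the miR-215+/+ library. Insl5, also an L cell hormone gene, was listed at 0 in both. The 10 enteroendocrine markers summed to 526 FPKM in the miR-215-/- library and 613 FPKM in the miR-215+/+ library. Gpbar1 was thus not detectable at this depth, while the L cell messages Gcg and Pyy were.

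**Figure D2:**
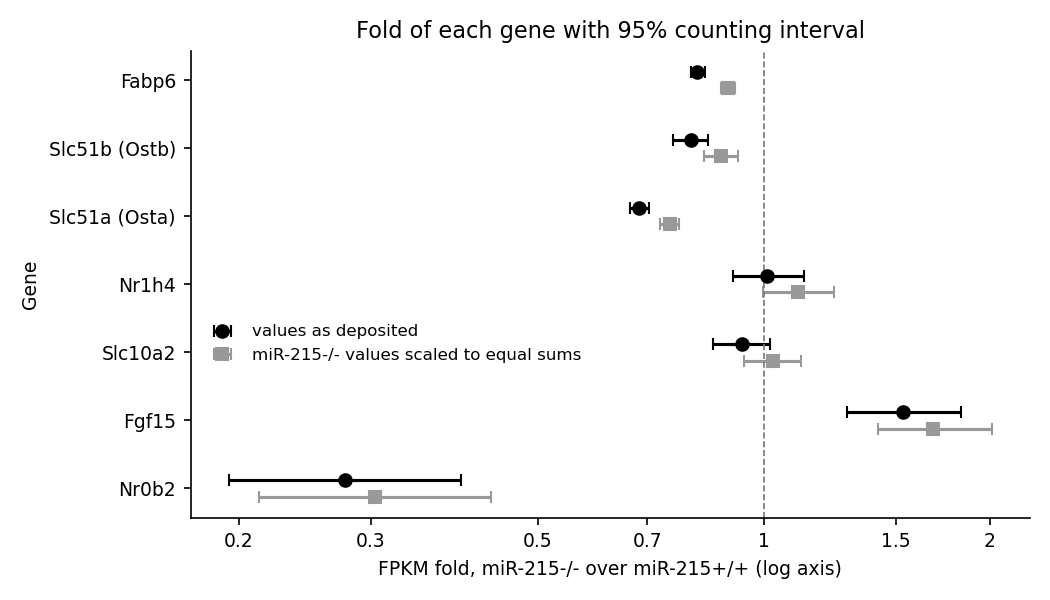
FPKM fold of the miR-215-/- library over the miR-215+/+ library (log axis) for the 7 detected genes, with 95% counting intervals, as deposited (black circles) and with the miR-215-/- values scaled to equal sums (grey squares). Nr0b2 and the carriers Fabp6, Slc51a and Slc51b lie left of the dashed line at 1 and Fgf15 right of it under both scalings, and the intervals of Nr1h4 and Slc10a2 reach the line.

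The order of the levels per length was the same in both libraries for the first 5 genes. Fabp6 was followed by Slc51b, Slc51a, Nr1h4 and Slc10a2. Fgf15 then stood above Nr0b2 in the miR-215-/- library. In the miR-215+/+ library Nr0b2 was listed above Fgf15, but the Poisson intervals of the 2 levels, 12.6 to 17.5 FPKM for Nr0b2 and 11.9 to 15.6 FPKM for Fgf15, overlapped. No other neighbours in the order had overlapping intervals in either library. These comparisons between genes assume the annotated lengths, and Fabp6 and Slc51b have the shortest transcripts, 479 and 709 nt.

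**Figure D3:**
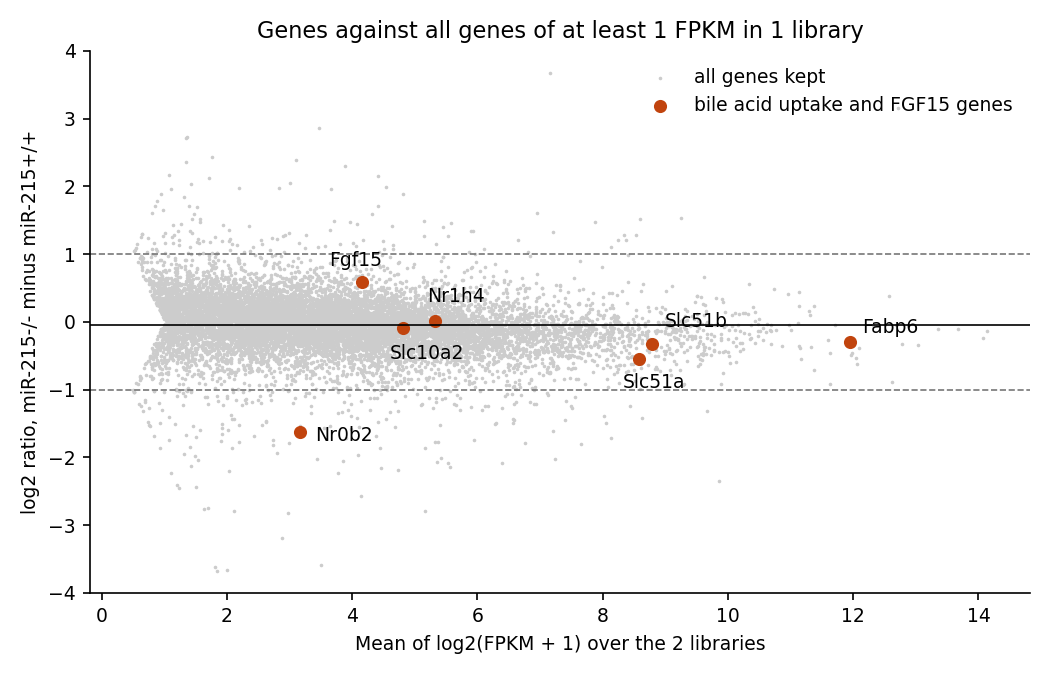
Log2 ratio of log2(FPKM + 1), miR-215-/- minus miR-215+/+, against the mean level of each of the 11504 genes kept (grey), with the 7 genes in orange, dashed lines at 2-fold and a solid line at the median; 33 genes beyond 4 on the log2 scale lie outside the axis. Nr0b2 lies below the lower dashed line at -1.63, and Fgf15 at 0.58 is the highest of the 7.

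Other genes that have been reported as regulated by FXR in intestine or liver were also compared. Of 9 such genes, 7 reached 1 FPKM, 6 of them had log2 ratios below 0, where 56.0% of all genes kept did, and 5 were below 0 at equal sums. Of the 7, 1 was past 2-fold. The median of the 7 was -0.46, beside -0.05 over all genes kept. Ang, the ribonuclease angiogenin, was at 21.3 FPKM in the miR-215-/- library and 75.4 FPKM in the miR-215+/+ library, 3.54-fold lower, with a fold interval of 0.237 to 0.334. Ang overlaps Rnase4, a gene on the same strand that was at 57.3 FPKM in the miR-215-/- library and 201 FPKM in the miR-215+/+ library, so the values of the 2 may share fragments and are uncertain. Apoc2, an activator of lipoprotein lipase, was at 1908 FPKM in the miR-215-/- library and 2779 FPKM in the miR-215+/+ library. Il18, an epithelial cytokine gene, was at 75.5 FPKM in the miR-215-/- library and 106 FPKM in the miR-215+/+ library. Nos2, the inducible nitric oxide synthase, was at 47.0 FPKM in the miR-215-/- library and 50.7 FPKM in the miR-215+/+ library, and Pltp, a phospholipid transfer protein gene, was at 1.98 FPKM in the miR-215-/- library and 1.48 FPKM in the miR-215+/+ library.

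The partners of FXR and the other nuclear receptors went both ways. Of 11, 10 reached 1 FPKM, with 4 log2 ratios above 0, 6 below 0 and none past 2-fold. Of all genes kept, 56.0% were below 0, 2.04% were past 2-fold lower and 1.34% past 2-fold higher. Values in parentheses from here on are counting intervals of the FPKM fold. Rxra, the heterodimer partner, was at 33.2 FPKM in the miR-215-/- library and 44.1 FPKM in the miR-215+/+ library (0.675 to 0.838). Rxrb, its close relative, was at 25.2 FPKM in the miR-215-/- library and 23.3 FPKM in the miR-215+/+ library (0.960 to 1.22). Nr5a2, LRH-1, a receptor that SHP is known to repress, was at 9.67 FPKM in the miR-215-/- library and 7.15 FPKM in the miR-215+/+ library (1.12 to 1.62). Vdr, the vitamin D receptor, which also senses lithocholic acid, was at 102 FPKM in the miR-215-/- library and 142 FPKM in the miR-215+/+ library (0.686 to 0.745).

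Factors reported to regulate transcription of the ileal carriers were split evenly, 5 of 10 above 0 and 5 below, with none past 2-fold. Over all genes kept, 44.0% were above 0 and 56.0% below. Fos stood highest, at 157 FPKM in the miR-215-/- library and 96.5 FPKM in the miR-215+/+ library, a fold of 1.63 (1.54 to 1.73). Cdx2, the caudal factor of intestinal identity, stood lowest, at 64.8 FPKM in the miR-215-/- library and 124 FPKM in the miR-215+/+ library, a fold of 0.522 (0.488 to 0.558). Its relative Cdx1 was at 84.6 FPKM in the miR-215-/- library and 78.1 FPKM in the miR-215+/+ library. Gata4, known in mice to repress the ileal carriers in the proximal gut, was at 34.6 FPKM in the miR-215-/- library and 51.0 FPKM in the miR-215+/+ library.

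Markers of gut region also differed between the libraries, and their part in the results on the carriers was not tested. All 9 markers of the distal small intestine reached 1 FPKM, with a median log2 ratio of -0.14, 6 of them below 0 as deposited and 5 at equal sums, where the median was -0.01, and a summed level of 2427 FPKM in the miR-215-/- library and 3126 FPKM in the miR-215+/+ library. Cubn and Amn, which encode the ileal receptor of vitamin B12 with intrinsic factor, were at folds of 0.648 (0.630 to 0.666) and 0.635 (0.598 to 0.673), close to that of Slc51a. The distal hormone genes Gcg and Pyy were at folds of 1.15 (0.953 to 1.39) and 1.17 (0.880 to 1.53). Of 14 markers of the proximal small intestine, 12 reached 1 FPKM, all 12 below 0 as deposited and 9 of 12 at equal sums, with a median of -0.34 that was -0.21 at equal sums. The proximal markers summed to 22225 FPKM in the miR-215-/- library and 27046 FPKM in the miR-215+/+ library. A few abundant genes made up most of these sums, Apoa4 alone being at 12581 FPKM in the miR-215-/- library and 13536 FPKM in the miR-215+/+ library. Slc40a1, by contrast, was at 3.58 FPKM in the miR-215-/- library and 6.56 FPKM in the miR-215+/+ library. Messages of both lists were thus present in both libraries, but the sums do not tell which segment was taken.

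**Figure D4:**
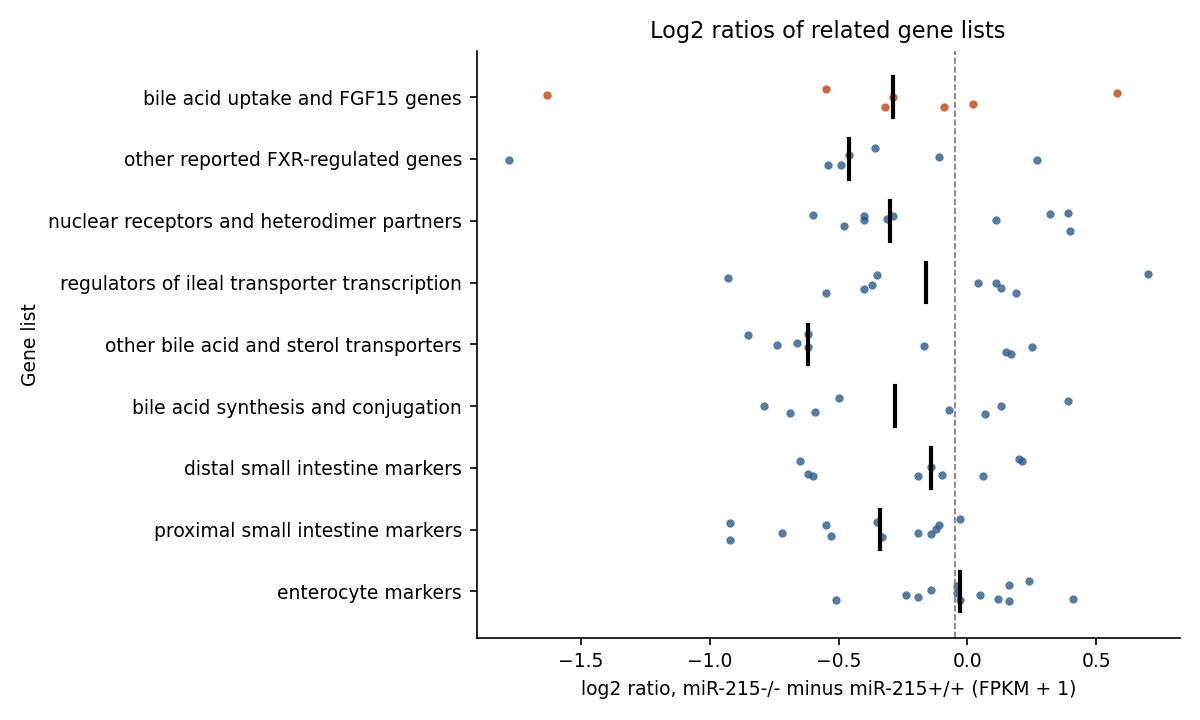
Log2 ratio of log2(FPKM + 1), miR-215-/- minus miR-215+/+, for each gene of 9 lists that reached 1 FPKM in either library (points), with the median of each list (black bar) and of all genes kept (dashed line). The bile acid uptake and FGF15 genes (orange) range between -1.63 and 0.58, and all 12 proximal markers lie below 0, 9 of them at equal sums.

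Transporters that move bile acids, sterols and drugs across the enterocyte membranes were also compared, in a list that also holds the sterol-esterifying enzyme gene Soat2. Of the 13 genes of this list 9 reached 1 FPKM, with a median of -0.62 and none past 2-fold. Of the 9, 3 were above 0 and 6, Soat2 included, were below, where 56.0% of all genes kept were below. The transporters that pump out across the brush border were lower in the miR-215-/- library. Abcg5 and Abcg8, the subunits of the sterol pump, were at folds of 0.633 (0.611 to 0.656) and 0.553 (0.530 to 0.577). Abcc2, which exports conjugates, was at 51.3 FPKM in the miR-215-/- library and 79.5 FPKM in the miR-215+/+ library. Abcc3, a basolateral exporter of conjugated bile acids, was at 28.4 FPKM in the miR-215-/- library and 25.1 FPKM in the miR-215+/+ library (1.04 to 1.23), and Npc1l1, the cholesterol importer, was at 449 FPKM in the miR-215-/- library and 403 FPKM in the miR-215+/+ library. The liver exporter gene Abcb11 was listed at 0 in both.

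Messages of the liver side of the loop ranged from undetected to abundant. Cyp7a1, the rate-limiting enzyme of bile acid synthesis, was listed at 0 in both libraries. Of 15 genes of synthesis and conjugation 8 reached 1 FPKM, 3 above 0 and 5 below, and 4 and 4 at equal sums. As deposited, 56.0% of all genes kept were below 0. Scp2 was the most abundant, at 395 FPKM in the miR-215-/- library and 558 FPKM in the miR-215+/+ library (0.689 to 0.727). Cyp27a1, the mitochondrial sterol hydroxylase, was at 61.6 FPKM in the miR-215-/- library and 46.8 FPKM in the miR-215+/+ library (1.20 to 1.45). Baat, the enzyme that joins bile acids to taurine or glycine, was at 1.82 FPKM in the miR-215-/- library and 3.54 FPKM in the miR-215+/+ library (0.324 to 0.802). The receptors of FGF15 were low: Fgfr4 was at 1.68 FPKM in the miR-215-/- library and 1.05 FPKM in the miR-215+/+ library, and its co-receptor Klb rested on about 4 fragments in the miR-215-/- library and 2 in the miR-215+/+ library. Of 7 hepatocyte markers, 1 reached 1 FPKM, Ttr, and the albumin gene Alb rested on about 2 fragments in the miR-215-/- library and 6 in the miR-215+/+ library.

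Messages of other cells, glucocorticoid-inducible genes and clock genes were also compared, and their part in the results above was not tested. All 12 fibroblast and smooth muscle markers that reached 1 FPKM were higher in the miR-215-/- library, as were 44.0% of all genes kept. The list of 14 summed to 63.8 FPKM in the miR-215-/- library and 20.3 FPKM in the miR-215+/+ library. Myeloid markers summed to 96.0 FPKM in the miR-215-/- library and 74.3 FPKM in the miR-215+/+ library, with S100a8 and S100a9 at 0 in both. Of the 10 myeloid markers that reached 1 FPKM, 9 had log2 ratios above 0 and 1 below. Lymphocyte markers summed to 414 FPKM in the miR-215-/- library and 421 FPKM in the miR-215+/+ library. Gzma made up most of that sum, at 261 FPKM in the miR-215-/- library and 250 FPKM in the miR-215+/+ library. Of the 12 lymphocyte markers, 3 had log2 ratios above 0 and 9 below, and 4 and 8 at equal sums. Of 6 genes inducible by glucocorticoids, which are also known to induce Slc10a2, 5 reached 1 FPKM. All 5 were at least 2-fold higher in the miR-215-/- library, where 1.34% of all genes kept were. Fkbp5 was among them, at 28.8 FPKM in the miR-215-/- library and 3.11 FPKM in the miR-215+/+ library. Of 13 clock genes 11 reached 1 FPKM, with a median log2 ratio of 0.01. Per1, which the glucocorticoid list also holds, was past 2-fold higher, at 13.2 FPKM in the miR-215-/- library and 2.61 FPKM in the miR-215+/+ library, and at equal sums 2 clock genes were. Per2 had a log2 ratio of 0.94 and an FPKM fold of 2.32 (1.86 to 2.90).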

How the data were processed

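Messenger RNA of small intestinal epithelial cells was sequenced in 1 library of each genotype. Per the labels' protocols, libraries were made with a stranded TruSeq kit. The authors deposited 1 FPKM value per gene and library; no header names the unit, which was inferred from the tool named and from the values. Per the submitters' processing notes, the tools were Cuffnorm 2.2.1, Bowtie2 2.2.3, TopHat2 2.0.13 and SAMtools 0.1.19, with the build mm10. The annotation, the tools' settings and how libraries were scaled were not given in the sources used here.

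Genes that reached 1 FPKM in either library were kept. Log2 ratios were taken after adding 1; a gene was past 2-fold by size alone, not by significance. The worth of 1 fragment came from 833 values under 0.3 FPKM of coding genes with 1 annotated transcript, with the ratio between libraries, 0.963, fixed by 246 of 602 genes under 0.1 FPKM. Fold intervals are exact Clopper-Pearson from rounded fragment numbers; intervals of quotients between genes used a normal approximation on the log scale. Lengths and positions came from GENCODE release M21 on GRCm38, the assembly of mm10; 22834 of 23284 symbols matched. Promoters and microRNAs came from RefSeq on GRCm38.p6. The steps were tested on simulated data. SciPy 1.17.1 and pandas 2.3.3 were used. Every gene of the pathway is named. From the other lists any gene kept could be named, and for other cell types at most the 4 of largest log2 ratio and the most abundant one. Cyp7a1, Abcb11, Klb, Insl5, Alb, S100a8 and S100a9 fall outside this rule and were chosen after their values were seen. The genes and lists were chosen with earlier results of these data known.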

Additional observations from a re-analysis of the deposited data

How the results depend on the processing

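No paired analysis was possible because each genotype has 1 library. Nr0b2 was past 2-fold lower under all 7 alternatives (log2 ratio -1.83 to -1.12), Fgf15 stayed above 0 (0.48 to 0.71), and Slc51a, Slc51b and Fabp6 stayed below 0. A change of pseudocount or of the filter on low values cannot turn the sign of a log2 ratio. Only the rescalings could have turned these signs. With the miR-215-/- values scaled to equal sums the log2 ratios were -0.16 for Fabp6, -0.41 for Osta, -0.19 for Ostb and 0.04 for Slc10a2, and the sign of Slc10a2 thus depended on the scaling. With equal upper quartiles they were -0.17 for Fabp6, -0.43 for Osta and -0.21 for Ostb, and with the enterocyte markers as scale -0.26 for Fabp6. Over all genes, 361 were past 2-fold lower and 339 higher with a pseudocount of 0.1, 120 and 60 with a pseudocount of 5, and 180 and 97 with a minimum of 5 FPKM. As deposited 235 were lower and 154 higher, and the balance turned under scaling, with 185 lower and 209 higher at equal sums and 193 and 199 with equal upper quartiles. Counting intervals lay wholly below 1 for 4 of the 7 genes and above 1 for 1 under every scaling, while over all genes the shares were 30.7% below and 19.5% above as deposited, and 19.6% and 31.3% at equal sums. Chosen after the data were seen, a transcript length shorter by 200 nt moved no interval across 1. Gpbar1 was undetected at this depth, and among the 7 detected genes Nr0b2 rested on the fewest fragments. Without replicate libraries, the spread between animals is unknown.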
